A study of Mus musculus with 23 samples.

Results

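The 8 genes described here carry lipid out of cells, move it between particles or control that traffic, and they were found by gene symbol among the 47729 genes of the count table. They are Pltp, Apoe, Lpl, Abca1, Abcg1, Mylip, Nr1h2 and Nr1h3, and all 8 passed the filter on low counts that left 19597 genes for testing. RNA was sequenced from dendritic cells (DCs) sorted from the spleens of wild type Balb/C mice, either untreated or given TLI, an abbreviation that the labels leave unexplained and that commonly stands for total lymphoid irradiation. Neither the number nor the age of the mice in a pool is stated there. The sort separated cells by surface CD8 and CD172, the product of Sirpa, into DC1a (high CD8, no CD172), DC1b (intermediate CD8, CD172 positive), DC2 (low CD8, high CD172) and DC3 (no CD8, low CD172). Each library came from a numbered pool of mice, with 2 untreated pools and 4 TLI pools, and the 4 populations of a pool share its number. This gave 8 untreated and 15 TLI libraries, since DC2 cells of TLI pool 2 were not analysed here. All untreated libraries and TLI pools 1 and 2 carry batch label 1 and TLI pools 3 and 4 carry batch label 2.

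Cells cannot break down the sterol ring, so surplus cholesterol is exported. The ABC transporters ABCA1 and ABCG1 pass it to apolipoproteins and lipoprotein particles. Apolipoprotein E, secreted by macrophages among other cells, takes it up, and phospholipid transfer protein remodels the particles. The genes for these proteins are textbook targets of the liver X receptors (LXR alpha and LXR beta, from Nr1h3 and Nr1h2), nuclear receptors that are switched on by oxysterols and pair with RXR. The same receptors induce Mylip, whose product is a ubiquitin ligase that limits lipoprotein uptake, and Lpl, the lipase that frees fatty acids from triglyceride-rich lipoproteins. In the spleen LXR alpha is known for its role in the macrophages of the marginal zone.

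The annotation places Pltp on chromosome 2 (164839518 to 164857711, minus strand of GRCm38) and Nr1h3 on the same chromosome (91184061 to 91202834, minus strand). Apoe lies on chromosome 7 (19696109 to 19699188, minus strand), as does Nr1h2 (44549616 to 44553951, minus strand). Abca1 is on chromosome 4 (53030787 to 53159895, minus strand), Abcg1 on chromosome 17 (31057675 to 31117988, plus strand), Lpl on chromosome 8 (68880491 to 68907448, plus strand) and Mylip on chromosome 13 (45389742 to 45412022, plus strand). Of the 8, 2 share exon bases with another gene, which matters because strand use in the counting was not stated. Pltp overlaps Ctsa, a lysosomal protease gene on the opposite strand, over 495 exon bases, and Nr1h3 overlaps the transcript Gm13783 on its own strand over 34. Their counts are uncertain to the extent that reads of these stretches could be split.

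The promoters of 3 genes are shown, Abca1 because its promoter holds a textbook binding site of the LXR and RXR pair, Pltp because it was nearly absent from some populations and abundant in others, and Apoe because most called differences are its own. Each window runs from 250 bases before to 50 bases after a RefSeq start site on GRCm38.p6, is printed 5′ to 3′ on the gene's own minus strand, and covers chr4:53159846-53160145 for Abca1, chr2:164857659-164857958 for Pltp and chr7:19699139-19699438 for the first of 3 Apoe start sites. Capitals mark TGACCNNNNNTAACC, the known Abca1 element with its spacer left free, and GAGGAA, the core bound by the myeloid factor PU.1, on either strand.
Abca1: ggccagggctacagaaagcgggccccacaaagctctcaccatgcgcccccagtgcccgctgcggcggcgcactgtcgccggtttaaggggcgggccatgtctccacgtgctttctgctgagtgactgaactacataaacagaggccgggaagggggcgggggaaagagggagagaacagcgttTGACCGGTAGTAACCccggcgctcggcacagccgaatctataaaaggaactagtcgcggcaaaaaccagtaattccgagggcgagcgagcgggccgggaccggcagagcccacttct
Pltp: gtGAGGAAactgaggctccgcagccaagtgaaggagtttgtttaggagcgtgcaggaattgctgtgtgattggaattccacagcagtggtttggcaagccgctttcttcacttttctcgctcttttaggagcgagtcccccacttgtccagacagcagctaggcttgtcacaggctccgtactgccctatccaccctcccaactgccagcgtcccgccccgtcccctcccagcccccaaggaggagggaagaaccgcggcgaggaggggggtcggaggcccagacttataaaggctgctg
Apoe: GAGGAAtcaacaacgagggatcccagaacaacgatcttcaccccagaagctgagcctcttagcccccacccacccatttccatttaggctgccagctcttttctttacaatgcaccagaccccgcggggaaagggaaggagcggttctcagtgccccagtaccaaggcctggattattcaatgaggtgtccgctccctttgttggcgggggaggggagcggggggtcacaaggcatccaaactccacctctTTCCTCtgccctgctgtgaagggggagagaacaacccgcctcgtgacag
In Abca1 the element began 67 bases before the start site, and 16 of 32851 promoters of the same length held these letters on either strand (0.0487%). The core GAGGAA stood once in the Pltp window and in both orientations, 2 times in all, in the Apoe window, against 28.3% of all promoters with at least 1. The half-site AGGTCA, found in 16.3% of all promoters, and its repeat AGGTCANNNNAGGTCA were in none of the 9 windows available for Pltp, Apoe, Abca1, Nr1h2, Nr1h3 and Mylip. Abcg1 and Lpl have no entry in the promoter table used here. One further window each of Nr1h3 and Apoe also held GAGGAA. The letters of the Abca1 element were chosen knowing that gene's promoter, and a match is a description of the window alone.

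Levels are given as CPM, counts scaled to 1000000 per library, after TMM scaling, a correction of library size for composition. Total counts per library lay between 19256447 and 36997890, and 3 counts, taken as the floor of detection, corresponded to 0.0861 to 0.147 CPM. Intervals and floors cover counting error only. Marker genes of the sort and of other cell types varied between libraries. Cd8a, which encodes the CD8 alpha chain, had 479 and 496 CPM in untreated DC1a cells, and in TLI DC1b cells it ran from 352 down to 0.363 CPM, so 1 DC1b library, that of pool 4, nearly lacked it. Summed DC1 markers (8 genes, Cd8a among them) were at 668 CPM in that library and at 1118 to 1308 CPM in the other TLI DC1b libraries. Sirpa ranged from 5.51 to 162 CPM among the TLI DC1b libraries and from 8.79 to 282 among those of TLI DC2 cells. Plasmacytoid DC markers (4 genes) summed to 2258 and 2520 CPM in untreated DC1b cells and to at most 142 CPM in every other library. Summed macrophage markers (10 genes) reached 252 to 2413 CPM in TLI DC1b and 267 to 2674 in TLI DC2 cells, against 25.2 to 306 in untreated libraries, 29 to 132 in TLI DC1a and 5.27 to 115 in TLI DC3 cells. Summed monocyte markers (6 genes) were at 8798 to 25868 CPM in TLI DC1b and 5601 to 11854 in TLI DC2 cells, and at most 5371 CPM in any other group. Summed neutrophil markers (7 genes) were at 1441 to 23253 CPM in TLI DC1b and 100 to 2140 in TLI DC2 cells and at most 16.9 CPM in untreated cells. Hemoglobin and other erythroid genes (4 genes) came to 11422 to 85970 CPM in the 7 libraries of TLI pools 1 and 2 and to at most 4553 CPM in any other. In bulk RNA fewer cells of a type and less RNA per cell cannot be told apart.

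**Figure D1:**
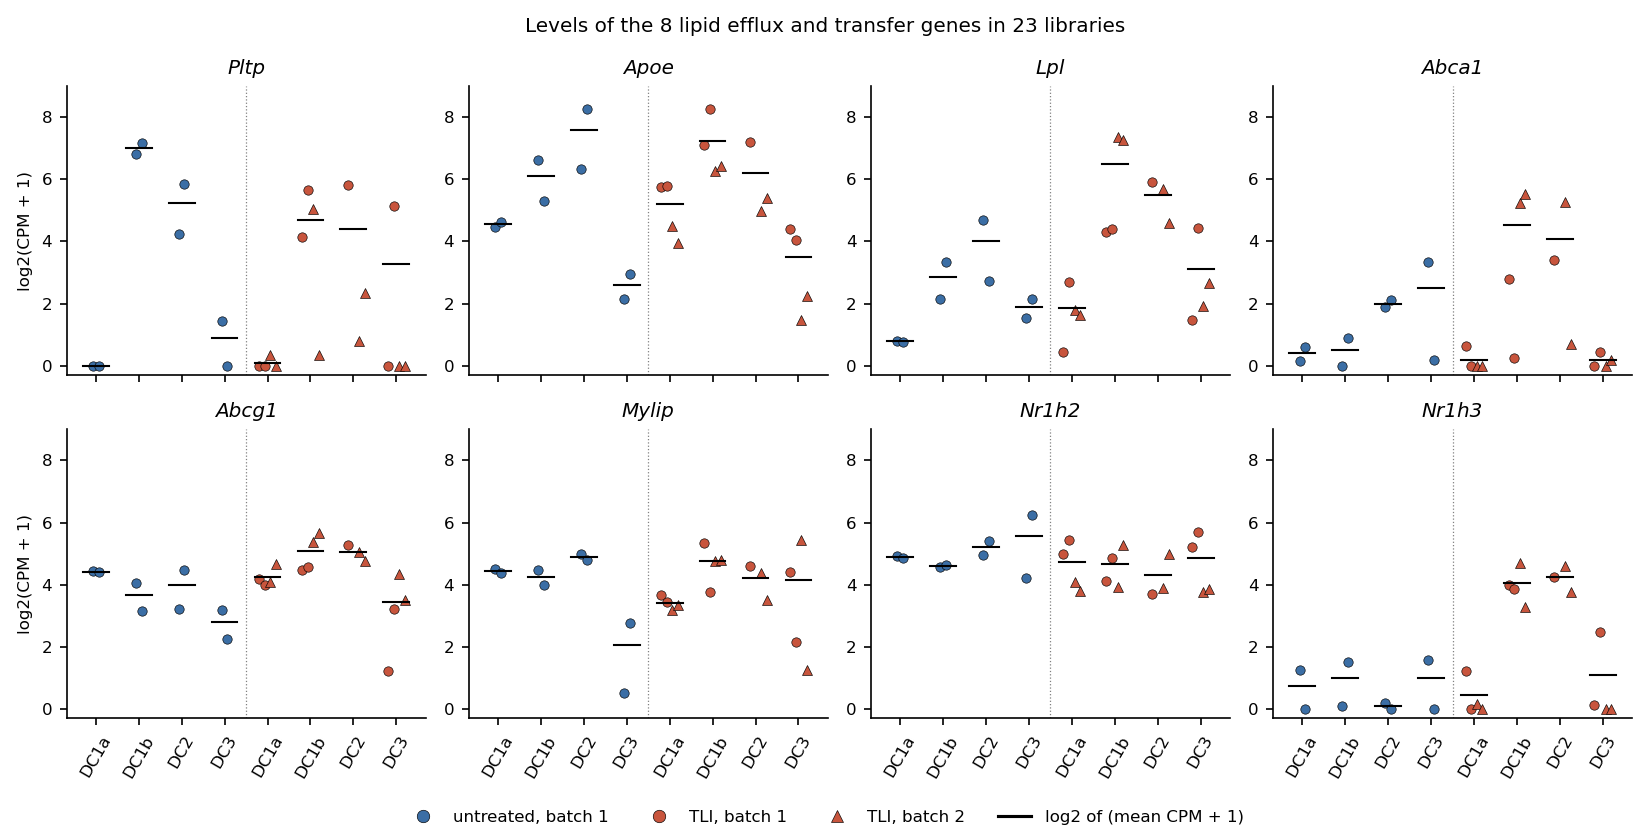
Level of each gene in all 23 libraries as log2(CPM + 1), by population, with untreated mice left and TLI mice right of the dotted line. Points are libraries, circles for batch 1 and triangles for batch 2, and bars are group means taken before the log. Nr1h3 sits between 8.85 and 24.9 CPM in the TLI DC1b and DC2 libraries and at 4.55 CPM or less in the other 16.

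Apoe carried the clearest differences between populations. In untreated mice it was measured at 21.2 and 23.9 CPM in DC1a cells, 97.7 and 38.7 CPM in DC1b, 80.1 and 303 CPM in DC2 and 3.44 and 6.7 CPM in DC3. In TLI mice the DC1a pools 1 to 4 had 52.8, 54.3, 21.8 and 14.4 CPM, the DC1b pools 136, 303, 75.8 and 85.0, the DC2 pools 1, 3 and 4 had 147, 30.2 and 41.6, and the DC3 pools 20.0, 15.4, 1.75 and 3.71. DC3 cells were lowest and DC1b and DC2 cells highest in both kinds of mice. By mean level the order ran untreated DC2, TLI DC1b, TLI DC2, untreated DC1b, TLI DC1a, untreated DC1a, TLI DC3 and untreated DC3, and each neighbouring pair overlapped in range except untreated DC1a and TLI DC3.

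Apoe passed the threshold in 7 of the 12 comparisons of populations. In TLI mice DC3 cells were lower than DC1b cells by a log2 fold change of -4.22 (SE 0.50, adjusted p = 0.000212 with edgeR's quasi-likelihood test) and lower than DC2 cells by -3.31 (SE 0.50, adjusted p = 0.00164). The fall from DC2 to DC3 cells was also called in untreated mice, at -5.24 (SE 0.74, adjusted p = 0.00148). These 3 calls held whichever of the 23 libraries was left out, but without the batch term only that between TLI DC3 and DC1b cells did. Apoe was also called lower in DC3 than in DC1b cells of untreated mice (-3.75, SE 0.69, adjusted p = 0.021), higher in DC2 than in DC1a cells of untreated mice (3.09, SE 0.67, adjusted p = 0.0224), higher in DC1b than in DC1a cells of TLI mice (2.10, SE 0.46, adjusted p = 0.0239) and lower in DC3 than in DC1a cells of TLI mice (-2.12, SE 0.46, adjusted p = 0.0385). With the pool of mice as a replicate block these last 4 Apoe comparisons missed the threshold, with adjusted p of 0.0506, 0.0558, 0.0529 and 0.0802 in the same order.

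Macrophage markers moved with Apoe across the libraries, and in TLI mice both moved with batch. In each of the 4 TLI populations every batch 1 library had more Apoe than every batch 2 library. The summed macrophage, monocyte and erythroid markers were split by batch in the same way, so the markers and batch cannot be told apart there. The highest Apoe values in TLI mice, 303 CPM in DC1b pool 2, 147 CPM in DC2 pool 1 and 136 CPM in DC1b pool 1, fell in the 3 libraries with the highest summed macrophage markers, 1590, 2674 and 2413 CPM. The highest value in untreated mice, 303 CPM in DC2 pool 2, stood beside 306 CPM of macrophage markers. Apoe remained called between TLI DC3 and DC1b cells without the 4 libraries of TLI pool 1, at -4.69 (SE 0.59, adjusted p = 0.00189), a setting chosen after seeing the data, and so did Apoe between TLI DC3 and DC2 cells (-3.58, adjusted p = 0.0109). In that setting the higher Apoe in TLI DC1b and the lower Apoe in TLI DC3 than in DC1a cells missed the threshold (adjusted p = 0.0539 and 0.104). The part of macrophage RNA in the differences was not tested.

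**Figure D2:**
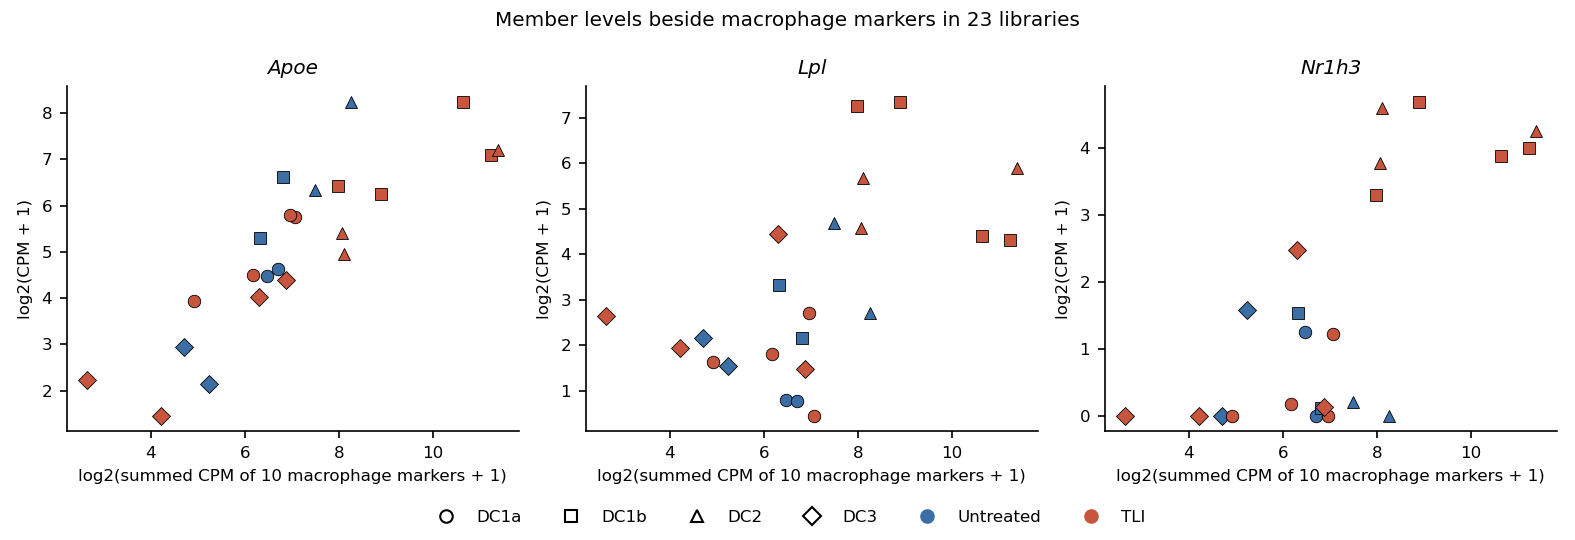
Levels of Apoe, Lpl and Nr1h3 as log2(CPM + 1) against the summed CPM of 10 macrophage markers on the same scale, 1 point per library, with shape for population and colour for treatment. Apoe is highest where the markers are high, whereas Lpl was at 152 CPM in a TLI DC1b library with 252 CPM of markers and at 5.56 CPM in an untreated DC2 library with 306 CPM.

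Lpl was the other gene with called differences. It was measured in untreated mice at 0.740 and 0.698 CPM in DC1a, 3.47 and 9.04 in DC1b, 24.96 and 5.56 in DC2 and 1.92 and 3.46 in DC3 cells. In TLI mice it was at 0.364, 5.53, 2.48 and 2.102 CPM in DC1a pools 1 to 4, at 18.9, 20.2, 163 and 152 CPM in DC1b, at 59.1, 50.4 and 22.9 CPM in DC2 pools 1, 3 and 4, and at 1.77, 20.7, 2.82 and 5.27 CPM in DC3. All TLI DC1b and DC2 libraries lay above all DC1a libraries, and DC3 pool 2 alone among the DC3 libraries reached into the DC1b range. Within DC1b cells the batch 2 pools were at 163 and 152 CPM and the batch 1 pools at 18.9 and 20.2, without overlap.

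In TLI mice Lpl was called higher in DC1b than in DC1a cells, with a log2 fold change of 5.07 (SE 1.11, adjusted p = 0.0259, edgeR's quasi-likelihood test), and higher in DC2 than in DC1a cells, at 4.07 (SE 1.05, adjusted p = 0.0415). Both Lpl calls held with the pool as a replicate block, at adjusted p of 0.0166 and 0.020, and both were lost in a fit of the TLI libraries alone, at 0.0585 and 0.0763. The first Lpl call was lost without any of 5 single libraries (adjusted p up to 0.118) and the second without any of 12 (up to 0.138). Among those 12 were untreated libraries and TLI DC3 pool 4, which are not part of that comparison. The TLI DC1b minus DC1a call of Lpl held without the 4 libraries of TLI pool 1 (5.52, SE 1.08, adjusted p = 0.0254), and the DC2 minus DC1a call did not (3.97, SE 1.07, adjusted p = 0.0879). In order of mean level TLI DC1b cells came first, followed by TLI DC2, untreated DC2, TLI DC3, untreated DC1b, untreated DC3, TLI DC1a and untreated DC1a. Of these Lpl neighbours only untreated DC1b and untreated DC3 did not overlap in range.

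Pltp, for phospholipid transfer protein, was close to an on and off gene in untreated mice. It had no count in either DC1a library, 111 and 142 CPM in DC1b cells, 17.8 and 56.4 CPM in DC2 cells, and 1.72 and 0 CPM in DC3 cells. The mean of 127 CPM in DC1b cells (SD 21.6, n = 2) was at least 1028-fold higher than the floor per library in DC1a cells, and that of DC2 cells was at least 301-fold higher. In TLI mice DC1a pools had 0, 0, 0.257 and 0 CPM, DC1b pools 16.8, 49.1, 32.1 and 0.264, DC2 pools 1, 3 and 4 had 55.2, 0.747 and 4.02, and DC3 pools 0, 34.4, 0 and 0. Untreated DC1b cells, highest of all, overlapped with no other group, and every other neighbour in the order untreated DC2, TLI DC1b, TLI DC2, TLI DC3, untreated DC3, TLI DC1a and untreated DC1a overlapped.

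No Pltp comparison passed the threshold with edgeR's quasi-likelihood test. In untreated mice DC1b against DC1a cells had an unadjusted p of 0.0114 and an adjusted p of 0.28, and DC2 against DC1a cells an adjusted p of 0.261, with edgeR's quasi-likelihood test. In TLI mice the mean in DC1b cells was 382-fold that in DC1a cells (95% Poisson interval 194 to 884, from 8 counts in DC1a cells), with an adjusted p of 0.214. DESeq2's test called Pltp between untreated DC1b and DC1a cells (adjusted p = 7.87e-11), and without the filter on low counts edgeR's gave 0.0487. Ctsa, which shares exon bases with Pltp, had 231 and 274 CPM in untreated DC1b, 235 and 276 in DC2, 36.9 and 18.9 in DC1a and 71.0 and 59.0 in DC3 cells. Ctsa was thus lower in untreated DC1a and DC3 than in DC1b and DC2 cells, as Pltp was, and TLI DC3 pool 2 had the most of both in its group, 34.4 CPM of Pltp and 242 CPM of Ctsa. The part of shared reads in the Pltp counts was not tested. The high Pltp libraries of untreated DC1b cells are also those with 2258 and 2520 CPM of plasmacytoid DC markers, and the part of those cells in the Pltp level was not tested.

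Nr1h3, which encodes LXR alpha, was at 4.55 CPM or less outside 2 groups. In untreated mice it had 1.37 and 0 CPM in DC1a, 0.0798 and 1.89 in DC1b, 0.153 and 0 in DC2 and 2.00 and 0 in DC3 cells. In TLI mice DC1b pools 1 to 4 had 14.9, 13.7, 24.9 and 8.85 CPM, and DC2 pools 1, 3 and 4 had 18.2, 23.3 and 12.7. The TLI DC1a pools remained at 1.34, 0, 0.129 and 0 CPM and the DC3 pools at 0.0982, 4.55, 0 and 0. All 7 TLI libraries of DC1b and DC2 cells lay above all 16 others, in both batches, and the remaining groups overlapped one another in the order TLI DC3, untreated DC3, untreated DC1b, untreated DC1a, TLI DC1a and untreated DC2. The same 2 groups had the highest summed monocyte markers, 5601 to 25868 CPM. Their macrophage markers were at 252 to 2674 CPM, against at most 132 in the other TLI groups, and their neutrophil markers at 100 to 23253 CPM, against at most 76.5. The part of these cells in the Nr1h3 levels was not tested.

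No Nr1h3 comparison passed the threshold with edgeR's quasi-likelihood test. DC2 cells of TLI mice were at 236-fold the mean of untreated DC2 cells (95% Poisson interval 92.3 to 867, from 4 counts in the untreated cells), with an unadjusted p of 0.0241 and an adjusted p of 0.474. Batch 1 holds a single TLI DC2 library, at 18.2 CPM of Nr1h3 against 0.153 and 0 CPM in the untreated DC2 libraries, which are all of batch 1. TLI DC1b cells had a mean of 15.6 CPM (SD 6.73, n = 4) against 0.983 CPM (SD 1.28, n = 2) in untreated DC1b cells, a 15.9-fold ratio with an adjusted p of 0.485. That ratio rests on untreated DC1b pool 2, and without it, a setting chosen after seeing the data, it was 196-fold (95% Poisson interval 54.1 to 1615, from 2 counts). Between TLI populations the Nr1h3 mean was 42.6-fold higher in DC1b and 49.3-fold higher in DC2 than in DC1a cells, with adjusted p of 0.241 and 0.155. Of the 37 counts in DC1a cells 33 came from pool 1, and without that library, again chosen after seeing the data, the ratios were 364-fold (95% Poisson interval 142 to 1334) and 421-fold (164 to 1545) from 4 counts. DESeq2's test called both differences (adjusted p = 0.00815 and 0.00738) and the DC2 difference between TLI and untreated mice (adjusted p = 0.00823). Gm13783, which shares 34 exon bases with Nr1h3, had at most 0.493 CPM in any library and none in TLI DC2 cells.

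Nr1h2, which encodes LXR beta, was present in every library between 11.9 and 75.1 CPM. Untreated cells had 29.4 and 28.3 CPM in DC1a, 22.97 and 24.1 in DC1b, 30.3 and 41.9 in DC2 and 17.7 and 75.1 in DC3. Means in TLI mice were 25.6 CPM in DC1a (SD 13.8, n = 4), 24.2 in DC1b (SD 10.9, n = 4), 18.98 in DC2 (SD 10.54, n = 3) and 28.3 in DC3 cells (SD 18.6, n = 4). All groups of TLI mice overlapped, and the lowest unadjusted p of the 22 Nr1h2 comparisons was 0.221. From the highest mean to the lowest the groups were untreated DC3, untreated DC2, untreated DC1a, TLI DC3, TLI DC1a, TLI DC1b, untreated DC1b and TLI DC2, and only untreated DC2 and untreated DC1a did not overlap.

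Abca1, the exporter to lipid-poor apolipoproteins, was patchy. It had 0.111 and 0.534 CPM in untreated DC1a, 0 and 0.854 in DC1b, 2.68 and 3.32 in DC2 and 9.08 and 0.143 in DC3 cells. TLI DC1b pools 1 to 4 were at 5.98, 0.188, 37.1 and 45.2 CPM and DC2 pools 1, 3 and 4 at 9.46, 37.5 and 0.628, whereas TLI DC1a pools had 0.567, 0, 0 and 0 CPM and DC3 pools 0, 0.355, 0 and 0.144. Thus 3 of the TLI DC1b libraries and 2 of the TLI DC2 libraries exceeded 5 CPM, and no DC1a library reached 1 CPM. The fit gave 7.43 (SE 2.64, adjusted p = 0.221) for Abca1 in DC1b against DC1a cells and 6.93 (SE 2.54, adjusted p = 0.158) in DC2 against DC1a cells of TLI mice, with edgeR's quasi-likelihood test. In the order of Abca1 means (TLI DC1b, TLI DC2, untreated DC3, untreated DC2, untreated DC1b, untreated DC1a, TLI DC1a and TLI DC3) only untreated DC2 and untreated DC1b did not overlap.

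Abcg1, the exporter to mature lipoprotein particles, was found in all populations. Untreated DC1a cells had 20.7 and 20.3 CPM, DC1b 15.7 and 8.01, DC2 8.37 and 21.5 and DC3 8.22 and 3.74. TLI DC1a pools had 17.3, 14.8, 15.9 and 24.6 CPM, DC1b pools 21.0, 22.8, 40.1 and 49.3, DC2 pools 1, 3 and 4 had 37.6, 32.1 and 26.2, and DC3 pools 1.33, 8.42, 19.5 and 10.3. TLI DC1b and DC2 libraries all lay above all TLI DC3 libraries and above the untreated libraries of their own population. Abcg1 in TLI DC3 cells was at -1.81 against DC1b (SE 0.56, adjusted p = 0.173) and at -1.80 against DC2 cells (SE 0.59, adjusted p = 0.186), past no threshold with edgeR's quasi-likelihood test. TLI DC2 cells and untreated DC1a cells were the only neighbours without overlap in the order TLI DC1b, TLI DC2, untreated DC1a, TLI DC1a, untreated DC2, untreated DC1b, TLI DC3 and untreated DC3.

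Mylip varied most in DC3 cells. It was measured at 21.8 and 19.6 CPM in untreated DC1a, 21.3 and 14.8 in DC1b, 30.5 and 26.7 in DC2 and 0.431 and 5.85 in DC3 cells. TLI DC1a pools had 11.6, 9.95, 8.17 and 9.25 CPM, DC1b pools 39.6, 12.7, 26.3 and 26.8, DC2 pools 1, 3 and 4 had 23.1, 19.8 and 10.3, and DC3 pools 20.3, 3.48, 42.02 and 1.38. The 4 TLI DC3 pools spanned more than any other group, and TLI DC1a libraries lay below untreated DC1a and TLI DC1b libraries without overlap. The lowest adjusted p of Mylip in any comparison was 0.342. Its group means ran untreated DC2, TLI DC1b, untreated DC1a, untreated DC1b, TLI DC2, TLI DC3, TLI DC1a and untreated DC3, and TLI DC1a and untreated DC3 were the single pair of neighbours without overlap.

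Per kilobase of exon the genes can be compared with each other. By share of the summed mean CPM per kb Apoe was the most abundant of the 8 in most groups, with 70.3% in untreated DC2, 60.2% in TLI DC1b, 55.3% in TLI DC1a and 48.5% in TLI DC2 cells, and it also led in untreated DC1a cells with 36.7%. In untreated DC1b cells Pltp had the highest mean, with 51.2%, but led only in pool 2 (55.4 CPM per kb against 18.1 of Apoe), while in pool 1 Apoe was at 45.7 and Pltp at 43.4 CPM per kb. Nr1h2 had the highest mean in DC3 cells, with 71.2% in untreated and 34.7% in TLI mice, and it led in every DC3 library except TLI pool 3, where Mylip was at 13.0 and Nr1h2 at 3.76 CPM per kb. The summed level averaged 96.6 CPM per kb in untreated DC1b (range 88.0 to 105, n = 2), 128 in untreated DC2 (66.7 to 188, n = 2), 116 in TLI DC1b (88.6 to 184, n = 4) and 70.3 in TLI DC2 cells (44.4 to 120, n = 3). DC1a and DC3 libraries summed to between 8.17 and 43.8 CPM per kb, below every DC1b and DC2 library.

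**Figure D3:**
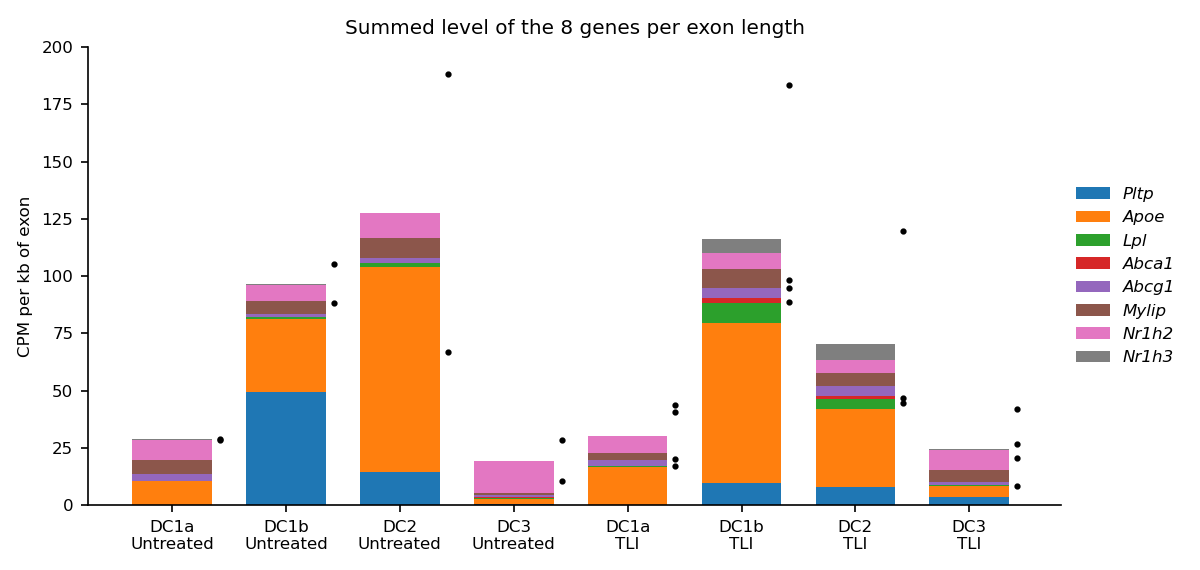
Mean CPM per kb of exon of the 8 genes, stacked by gene for each population and treatment, with a dot for the sum in each library. The DC1b and DC2 sums lie between 44.4 and 188 CPM per kb and the DC1a and DC3 sums between 8.17 and 43.8.

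Calls among the 8 genes can be read against those among all 19597 genes. In untreated mice 3 of 48 pairs of gene and comparison were called, all of them Apoe. Among all genes 0.837% were called in DC1b against DC1a cells (0 of 8 members), 1.91% in DC2 against DC1a (1 of 8), 0.184% in DC3 against DC1a (0 of 8), 0.398% in DC2 against DC1b (0 of 8), 0.393% in DC3 against DC1b (1 of 8) and 0.837% in DC3 against DC2 cells (1 of 8). The median log2 fold change of the 8 genes was 1.78 in DC2 against DC1a cells, where that of all genes was 0.11, and -1.91 in DC3 against DC2 cells, where that of all genes was 0. The replicate block left 1 of the 48 pairs called, and a fit of the untreated libraries alone left 0, with Apoe in DC3 against DC2 cells at an adjusted p of 0.0555.

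In TLI mice 6 of 48 pairs were called, 4 of Apoe and 2 of Lpl. The test called 1.42% of all genes in DC1b against DC1a cells (2 of 8 members), 3.4% in DC2 against DC1a (1 of 8), 0.75% in DC3 against DC1a (1 of 8), 0.214% in DC2 against DC1b (0 of 8), 1.11% in DC3 against DC1b (1 of 8) and 1.37% in DC3 against DC2 cells (1 of 8). The members' median log2 fold change was 3.59 in DC1b and 2.63 in DC2 against DC1a cells, where the median of all genes was 0.02 in both, and -3.30 and -2.16 in DC3 against DC1b and DC2 cells, where it was -0.08 and -0.03. Between DC2 and DC1b cells 0 of 8 members and 2042 of all 19597 genes were at an unadjusted p under 0.05 with edgeR's test. The lowest p among members was that of Apoe (-0.91, SE 0.48, unadjusted p = 0.0776).

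Groups were also compared by range, without a test. Every DC1b library lay above every DC1a library of TLI mice for 5 members (Pltp, Apoe, Lpl, Nr1h3 and Mylip) and for 3.49% of all genes, with Pltp separated by 0.264 against 0.257 CPM, 8 counts in each of the 2 nearest libraries. Every DC2 library lay above every DC1a library for 5 members (Pltp, Abca1, Abcg1, Lpl and Nr1h3) and for 7.61% of all genes. Every DC3 library lay below every DC1b library for 3 members (Apoe, Abcg1 and Nr1h3) and 3.03% of all genes, and below every DC2 library for 5 members (Apoe, Abca1, Abcg1, Lpl and Nr1h3) and 4.85% of all genes.

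**Figure D4:**
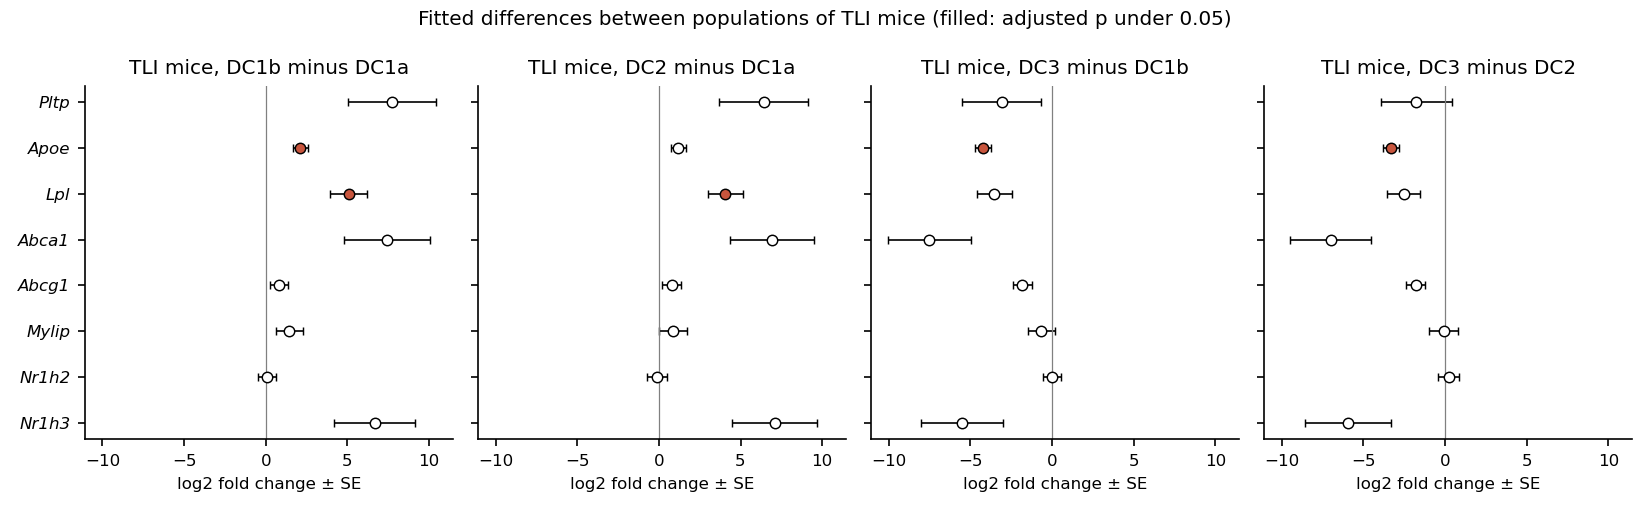
Fitted log2 fold change with its SE for each gene in 4 comparisons between populations of TLI mice, filled where the adjusted p of edgeR's quasi-likelihood test was under 0.05. Apoe is filled in 3 panels and Lpl in 2, while Pltp, Abca1 and Nr1h3 have wider errors and no filled point.

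TLI was compared with untreated mice within each population, with batch as a term that only the TLI pools inform. No member was called in any of the 4 populations, where the test called 0.0102% of all genes in DC1a, 0.413% in DC1b, 0.0612% in DC2 and 0.0255% in DC3 cells. At an unadjusted p under 0.05 there were 5 of 32 pairs, 3 of Apoe and 1 each of Lpl and Nr1h3, and DESeq2's test called 4 of 32. Over all genes 10.4% of such pairs were at that unadjusted level and DESeq2's test called 4.51%. Apoe was at 1.94 in DC1b cells (SE 0.61, adjusted p = 0.208) and Lpl at 3.81 (SE 1.46, adjusted p = 0.308), with edgeR's quasi-likelihood test. Within batch 1 alone these were 1.70 for Apoe (SE 0.67, adjusted p = 0.40) and 1.66 for Lpl (SE 1.32, adjusted p = 0.625). By range, every TLI library lay above every untreated library for 3 members in DC1b cells (Abcg1, Lpl and Nr1h3) and for 2 in DC2 cells (Abcg1 and Nr1h3), where 8.29% and 10.7% of all genes did so. Pltp went the other way in DC1b cells, with 111 and 142 CPM in untreated mice above the 49.1 CPM of the highest TLI pool, and its fitted change was -0.78 (SE 2.84, adjusted p = 0.96). Untreated DC1b cells had up to 2520 CPM of plasmacytoid DC markers and TLI DC1b cells at most 130, and summed macrophage, monocyte, neutrophil and erythroid markers were higher in every TLI DC1b than in every untreated DC1b library. The monocyte sums there were 8798 to 25868 CPM against 3188 to 5247, and the monocyte markers Lyz2 (3.29, SE 0.33, adjusted p = 0.000347) and Cd14 (4.11, SE 0.79, adjusted p = 0.0257) were called higher in TLI DC1b cells. The part of these cells in the differences was not tested.

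Whether the TLI difference itself varied between populations was tested with interaction terms. None of the 48 pairs of member and interaction passed the threshold, with 7 at an unadjusted p under 0.05, and DESeq2's test called 4. Over all genes 7.28% of such pairs were at that unadjusted level and DESeq2's test called 2.86%. Among all genes 0.0357% were called for DC1b minus DC1a, 0.0255% for DC2 minus DC1a, 0% for DC3 minus DC1a, 0.122% for DC2 minus DC1b, 0.0204% for DC3 minus DC1b and 0.0357% for DC3 minus DC2 cells. The smallest p among members was that of Apoe in DC2 minus DC1b cells, a difference of -2.40 (SE 0.79, unadjusted p = 0.00781, adjusted p = 0.429).

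Other genes of the pathway were taken from 7 lists, and their counts of called genes are read beside the 1071 of 19597 genes (5.47%) called in at least 1 of the 22 comparisons. Of 14 other LXR targets 12 were tested and 3 were called, Apoc2, Arl4c and Smpdl3a. Apoc2, for the apolipoprotein that activates LPL, was listed at 0 in untreated DC1a and DC3 cells, where DC1b cells had 14.4 to 31.2 CPM and DC2 cells 25.4 to 26.8. In TLI mice it reached 87.4 to 207 CPM in DC1b and 5.54 to 109 in DC2 cells against at most 0.515 CPM in DC1a and 0.421 in DC3 cells. Apoc2 was called between both high and both low populations of TLI mice, with adjusted p from 0.0020 to 0.00355. Arl4c, a small GTPase gene, was called higher in TLI DC1b (2.60, SE 0.52, adjusted p = 0.0141) and TLI DC2 cells (2.64, SE 0.54, adjusted p = 0.00959) than in DC1a cells. Smpdl3a, for a secreted phosphodiesterase, was lower in TLI DC3 than in DC1b cells (-2.02, SE 0.46, adjusted p = 0.0438). The median of this list in TLI DC1b against DC1a cells was 1.08, with 2 of 12 called higher and none lower.

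Among 12 genes for uptake of lipoproteins and sterols 11 were tested, and the called differences of Lrp1, Msr1 and Cd36 are described. Lrp1, a large receptor for ApoE-bearing particles, was not counted in untreated DC1a cells and stood at 26.5 to 34.0 CPM in untreated DC2 cells. In TLI mice Lrp1 had 20.7 to 49.1 CPM in DC1b and 24.6 to 64.4 in DC2 cells, with 4.66 (SE 1.00, adjusted p = 0.0255) and 4.69 (SE 1.02, adjusted p = 0.0173) against DC1a cells. Msr1, the scavenger receptor A gene, had 37.1 to 97.4 CPM in TLI DC1b and 42.1 to 92.1 in TLI DC2 cells against at most 0.712 in TLI DC1a cells, and it was called in both comparisons (adjusted p = 0.0352 and 0.0232). Cd36, a fatty acid translocase and scavenger receptor, went the other way, called lower in TLI DC2 than in DC1a cells at -2.64 (SE 0.66, adjusted p = 0.0335).

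The remaining lists held few calls. Of 8 other ABC exporters of subfamilies A and G, all tested, only Abcg3 was called, at 106 to 238 CPM in TLI DC2 cells against 0.144 to 15.8 in TLI DC3 cells (-4.44, SE 0.83, adjusted p = 0.00833). None of the 9 tested partners and corepressors of LXR (of 11) was called by edgeR's test, with 29 of 198 pairs of gene and comparison at an unadjusted p under 0.05 and 15 called by DESeq2's test. Over all genes and the 22 comparisons 10.1% of pairs were at that unadjusted level and DESeq2's test called 5.30%. The same held for the 7 tested genes of sterol esterification and oxysterols (of 9), with 29 of 154 pairs at that level and 15 by DESeq2, and for the 9 tested partners of LPL and other lipases (of 13), with 24 of 198 pairs and 8 by DESeq2. All 24 genes for sterol synthesis and its control by SREBP2 were tested, and 2 were called, Hmgcs1 and Srebf2, both higher in TLI DC3 cells. No gene of the 7 lists was called for TLI against untreated mice or for an interaction. The lists are read beside a median of all genes of 0.02 in TLI DC1b and DC2 against DC1a cells.

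The genes most like each member over the 23 libraries were read from Pearson's r of log2 CPM, as a description, since libraries share pools, groups and batches. For Apoe these were Pla2g7 (0.93), Cd300e (0.89) and Rras (0.88), and for Lpl Ap1s2 (0.87), Ccl9 (0.86) and Thbd (0.86). Pltp was most like Lair1 (0.83), Cd300lf (0.81) and Sirpa (0.80), the last of these being the gene of the sort marker CD172. Nr1h3 was most like Plod3 (0.79), Axl (0.79) and Lyz1 (0.76), of which Axl is among the macrophage markers used here. The nearest genes to Abca1 were Ppp2r5a (0.77), Ddx60 (0.74) and Zfp868 (0.74), and those to Abcg1 were Skp2 (0.83), Gca (0.80) and Bmf (0.79). Nr1h2 was nearest to Sf3a3 (0.75), Dnajb6 (0.73) and Rps6kb2 (0.71), and Mylip to Ccdc192 (0.76), Polb (0.74) and Leng9 (0.71). The highest r of these 2 members was below the highest of each other member, though their values overlapped those of Abca1. Between members the highest r was 0.68, for Abca1 with Nr1h3 and for Abca1 with Lpl, followed by 0.67 for Nr1h3 with Lpl, and the lowest was -0.42, for Abcg1 with Nr1h2.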

How the data were processed

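Per the labels, RNA of sorted spleen DCs was copied to cDNA with a kit for low input and sequenced. The authors trimmed reads with Trimmomatic, aligned them to GRCm38 with HISAT2 and used StringTie and its accompanying script to derive the deposited estimated counts, whole numbers per gene for Ensembl annotation that are not scaled for depth or length. The tests had been planned for plain counts and were run on these whole numbers without rounding. Whether strand was used in counting was not given in the sources used here. Symbols, positions and exon lengths came from GENCODE M21 on GRCm38 (47310 of 47729 identifiers matched), and promoters from RefSeq.

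All 23 libraries entered 1 fit in edgeR 4.0.16 (R 4.3.3) with 8 groups of population and treatment and a batch term, with TMM scaling, for the 19597 genes kept by filterByExpr. The quasi-likelihood test was applied to 22 contrasts, with Benjamini-Hochberg adjustment over all genes tested and a threshold of 0.05. Log2 CPM for correlations used a prior count of 2. The fits were tested on simulated data. Summaries were made with Python 3.11.15. Lower bounds were set against 3 counts per library, and Poisson intervals were at 95%.

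The members and gene lists were chosen with earlier results of these data known, and 1 gene of the uptake list is not reported here. Within each list up to 4 genes per family of comparisons are named, those with the lowest adjusted p among called genes with a mean of at least 5 CPM in the higher group, and likeness is given for members with a mean of at least 1 CPM against genes with a mean of at least 5 CPM.

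Pool numbers in the sample labels pair the populations, which came from the same pooled mice. Deviations of log2 CPM from the group mean correlated at 0.0801 to 0.393 between libraries of the same TLI pool. Between those of the same untreated pool they correlated at -0.00585 to 0.0159. Batch was not removed from these deviations, and only the TLI groups span both batches, so pool and batch cannot be told apart in them. Alternatives were the pool as a replicate block, DESeq2 1.42.0, RLE size factors in edgeR, the batch term dropped, the filter dropped or tightened to 10 counts per library of a group, fits of 1 treatment or of batch 1 alone, and leaving out each library in turn. Leaving out TLI pool 1 was added after seeing the data.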

Additional observations from a re-analysis of the deposited data

Results flagged for a closer look

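In the groups of 4 libraries (TLI DC1a, DC1b and DC3 cells) 24 sets of member values were examined for a library far from the other 3, and 5 were marked. The rule marks about 1 of 20 groups of normally distributed values. A library with counts beside 3 libraries without any is always marked, so the number of marks cannot be read against that rate. In TLI DC3 cells pool 2 stood apart for Pltp, at 34.4 CPM where the other 3 pools had no count, and for Nr1h3, at 4.55 CPM beside a group median of 0.0491 CPM. That library also had the highest Lpl of the DC3 pools, 20.7 CPM. Its summed macrophage markers were at 78.1 CPM, within the range of 5.27 to 115 CPM of the group, and Ctsa was at 242 CPM against 3.502 to 81.5 CPM in the other pools.

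The other 3 marks were in TLI DC1a cells, all at low levels. Pool 3 had 0.257 CPM of Pltp (8 counts) and pool 1 had 0.567 CPM of Abca1 (14 counts), each beside 3 libraries with no count, and pool 1 had 1.34 CPM of Nr1h3 (33 counts) beside a group median of 0.0644 CPM. The groups of 2 and 3 libraries were not examined in this way.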

How the results depend on the processing

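The 9 differences called for Apoe and Lpl kept their direction under every alternative run. Apoe in TLI DC3 against DC1b cells stayed past the threshold in all of them (adjusted p up to 0.0354), while Apoe in DC3 against DC2 cells lost it without the batch term in TLI (-2.84, 0.152) and untreated mice (-5.24, 0.0939) and, in the latter, in a fit of untreated libraries alone (0.0555). DESeq2's test called 8 member pairs in untreated mice, 18 in TLI mice, 4 for TLI against untreated and 4 interactions, and 7250, 8693, 3539 and 3363 pairs over all genes, where edgeR's called 894, 1619, 100 and 47. Without the batch term 0 member pairs in untreated and 3 in TLI mice were called, and over all genes 308, 912, 28 and 19 in the order above. The other 4 Apoe calls were also lost then (adjusted p from 0.293 to 0.470), and both Lpl calls in a fit of TLI libraries alone (0.0585 and 0.0763). The paired fit with the replicate block gave 1 member pair in untreated and 4 in TLI mice, and a fit of untreated libraries alone gave 0. Leaving out TLI pool 1 gave 3 member pairs in TLI mice, and 412 and 72 calls over all genes for TLI against untreated and the interactions. Without the filter these were 330 and 129, and within batch 1 they were 15 and 22.

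Leaving out each library in turn gave 2 to 3 member pairs in untreated and 2 to 6 in TLI mice, with 0 for TLI against untreated and for the interactions, and over all genes 364 to 1077, 1081 to 1643, 21 to 145 and 19 to 106. In untreated mice Apoe in DC2 against DC1a cells was lost without DC1a pool 1 (adjusted p = 0.288), DC1a pool 2 (0.212) or DC2 pool 2 (0.362), and in DC3 against DC1b cells without DC1b pool 1 (0.184), DC3 pool 1 (0.269) or DC3 pool 2 (0.187). In TLI mice Lpl in DC1b against DC1a cells was lost without DC1a pool 1, 3 or 4 (0.0679, 0.111 and 0.118) or DC1b pool 3 or 4 (0.0579 each), and Apoe there without DC1a pool 1, 2 or 4 (0.0924, 0.0887 and 0.101) or DC1b pool 3 or 4 (0.056 and 0.0685). Lpl in TLI DC2 against DC1a cells was lost without any of 12 libraries (0.0517 to 0.138), which were DC1a pools 1, 3 and 4, DC2 pools 1 and 3 and DC3 pool 4 of TLI mice and the 6 untreated libraries of DC1a, DC1b and DC3 cells. Apoe in TLI DC3 against DC1a cells was lost without any of 12 (0.051 to 0.151), all DC1a and DC3 pools, DC2 pool 1 and DC1b pool 2 of TLI mice and both untreated DC1a pools. The cause was not tested. Levels under 0.0861 to 0.147 CPM, 3 counts per library, were not detectable at this depth.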

Other observations

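Of 24 genes of sterol synthesis and its control 2 were called, Hmgcs1 and Srebf2. Hmgcs1, which encodes the enzyme that makes HMG-CoA, was at 70.2 to 183 CPM in TLI DC3 cells against 9.65 to 30.9 in DC1a and 8.39 to 32.4 in DC1b cells of TLI mice. It was called higher in TLI DC3 than in DC1b (2.85, SE 0.48, adjusted p = 0.00511) and DC1a cells (2.57, SE 0.48, adjusted p = 0.0138) with edgeR's quasi-likelihood test. Srebf2, the gene of the transcription factor that drives this pathway, was higher in TLI DC3 than in DC2 cells (1.79, SE 0.42, adjusted p = 0.0424). In each of these 3 comparisons 1 of the 24 genes was called, where 1.11%, 0.75% and 1.37% of all genes were. The median log2 fold change of the list was 1.37 in TLI DC3 against DC1a and 1.16 against DC1b cells, where that of all genes was -0.01 and -0.08. Untreated DC3 cells had 82.9 and 120 CPM of Hmgcs1 against 9.36 and 12.0 in DC1a cells, a difference that was not called.

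TLI DC3 pools 1 and 2 also held 2601 and 504 CPM of NK cell markers (4 genes), where pools 3 and 4 had 14.3 and 35.1 CPM. The part of NK cells in the DC3 values was not tested.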
